A study of Homo sapiens with 2 samples.

Results

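The 38 genes described here are hypoxia response and glycolysis genes, chosen by symbol: HIF subunits and oxygen sensors, genes induced by hypoxia, glucose transporters, glycolytic enzymes, regulators of glycolytic flux, and lactate enzymes and exporters. Of these, 35 were measured, of 19775 genes in all, and CA9, SLC16A1 and SLC16A3 were not analysed here. PC3CR is a cabazitaxel (CBZ)-resistant subline that was derived from the human prostate cancer cell line PC3 by passage in medium with CBZ for 18 months and was examined after 3 months without the drug. PC3 is its parental line, and both lines were kept in the same serum-containing medium, with no low-oxygen culture described. PC3CR is 1 subline, RNA of each line was hybridised to 1 array, and so no difference below has a replicate check or a p-value.

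Cells sense oxygen through the prolyl hydroxylases of the EGLN family, which mark the alpha subunits of the hypoxia-inducible factors (HIF) so that the von Hippel-Lindau protein VHL can direct their destruction. When oxygen is short, HIF1A or EPAS1 pairs with ARNT, binds short DNA letters called hypoxia response elements, and raises transcription of genes for blood vessel growth, pH control, mitophagy and glycolysis. Many tumor cells run glycolysis at a high rate also when oxygen is present.

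Each value below is a log2 value from the robust multichip average (RMA), the authors' normalization, and each difference is PC3CR minus PC3 on that scale, so that 1 stands for 2-fold, the threshold that the methods used. A gene was read from its brightest probe set, the one with the highest mean over both arrays. Values of different genes come from different probes and are not compared as levels. The median of genes was 6.05 on the PC3CR array and 5.93 on the PC3 array, and the lower quartiles, near which a value carries little signal, were 4.10 and 4.22. Of 5 epithelial markers, all lay above the median on both arrays, although KRT19 and EPCAM differed by -3.28 and -2.49. Among 5 measured prostate luminal markers, KLK3 was at 8.08 in PC3CR and 8.04 in PC3, and FOLH1 and ACP3 lay below the lower quartile on both arrays. So did the haematopoietic markers PTPRC and LYZ and the endothelial markers CDH5 and VWF. CD3E was at 5.46 in PC3CR and 5.74 in PC3, CD14 at 5.11 in PC3CR and 4.66 in PC3, and the endothelial marker PECAM1 at 5.81 in PC3CR and 6.41 in PC3, the last value above the median. Of 4 haematopoietic, 3 endothelial and 4 fibroblast markers measured, COL1A1 was the 1 past 2-fold, at 6.56 in PC3CR and 8.69 in PC3. Averaged over its 5 probe sets COL1A1 differed by -0.79, within 2-fold. RNA was taken from bulk cultures, in which fewer expressing cells and less RNA per cell cannot be told apart.

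Hypoxia and glycolysis genes went both ways between PC3CR and PC3, and genes of 1 family often differed from each other. Of the 35 measured genes, 6 were at least 2-fold higher in PC3CR, against 9.84% of all genes, and 5 were at least 2-fold lower, against 6.72% of all genes. All 35 were also bright, which here means that the higher of a gene's 2 values reached the median of its array, and the other genes that met this floor are called bright genes below. Of the 10644 bright genes, 15.6% passed 2-fold upward and 10.8% downward, which makes 26.4% in all, and the same share of the 35 members was 31.4%. A gene can be bright through its higher array alone, as SLC2A3 and EGLN3 were through PC3CR, so a gene that differs meets this floor more easily and the bright genes are not a neutral background. The median difference was 0.22 over the members, against -0.04 over all genes and 0.09 over bright genes. The higher genes were SLC2A3, EGLN1, PFKP, PDK3, EGLN3 and ENO1, and the lower genes were ADM, ANKRD37, KDM3A, HK2 and ALDOC.

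**Figure D1:**
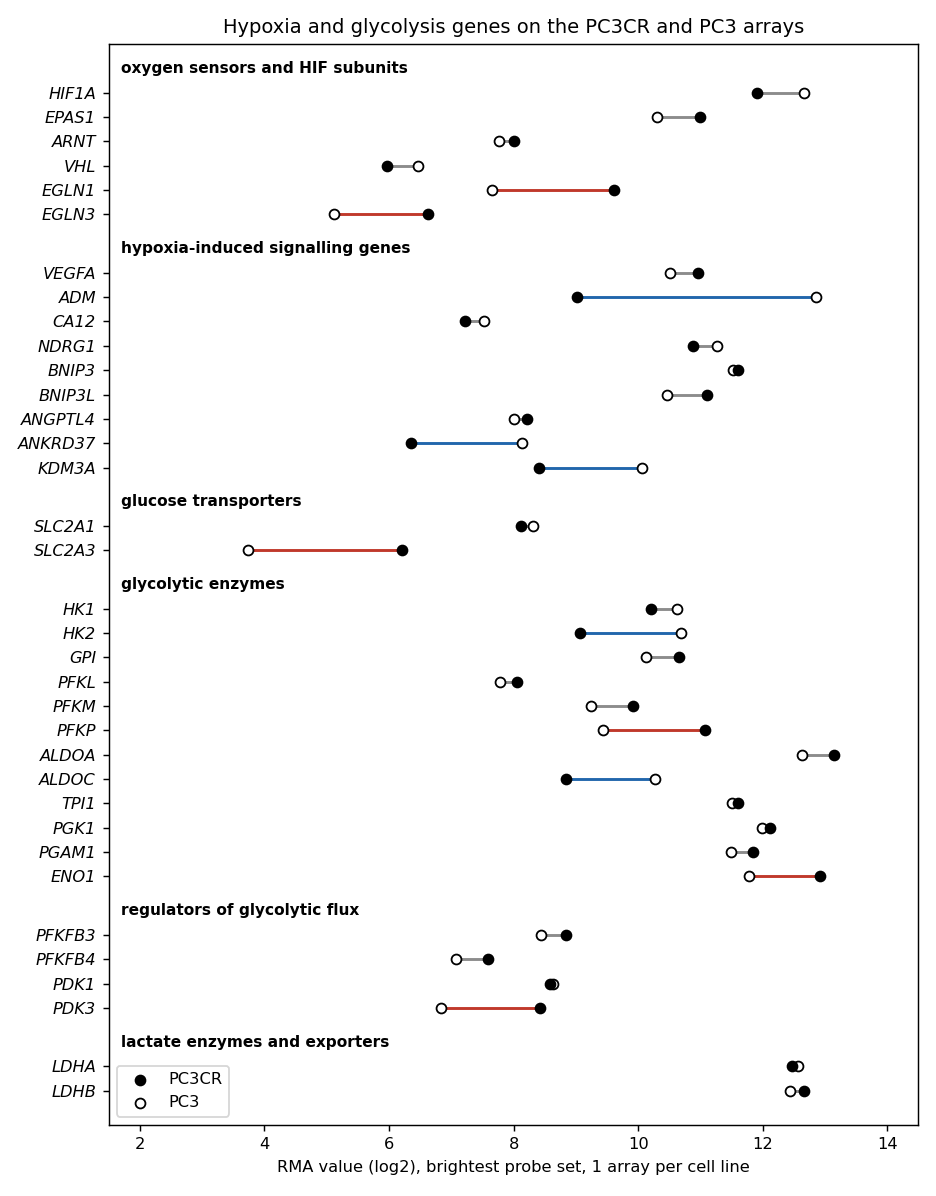
RMA values (log2, horizontal axis) of the 35 measured genes in PC3CR (filled circles) and PC3 (open circles), 1 array per cell line, grouped by role. Red lines join values at least 2-fold higher in PC3CR, blue lines values at least 2-fold lower and grey lines values within 2-fold. ADM has the longest line, with 9.02 in PC3CR and 12.86 in PC3.

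Among oxygen sensors and HIF subunits, the hydroxylases EGLN1 and EGLN3 were both higher in PC3CR, and the alpha subunits went in opposite directions. EGLN1, the main hydroxylase of HIF alpha subunits in normal oxygen, was at 9.61 in PC3CR and 7.65 in PC3, a difference of 1.96 or 3.88-fold. All 4 probe sets of EGLN1 were higher in PC3CR, by between 0.48 and 2.40, and 3 of them were past 2-fold. EGLN3, a hydroxylase that is itself a HIF target, was at 6.62 in PC3CR and 5.11 in PC3, a difference of 1.51. The second probe set of EGLN3 differed by 1.26, so that both passed 2-fold. This second probe set was dim, at 4.66 in PC3CR and 3.40 in PC3, the latter below the lower quartile.

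HIF1A, the oxygen-labile subunit best known for glycolytic targets, was at 11.91 in PC3CR and 12.67 in PC3, a difference of -0.76 from its only probe set. EPAS1, which encodes HIF2alpha, was at 10.99 in PC3CR and 10.30 in PC3, a difference of 0.69. Its dimmer probe sets differed by 0.06 and 0.00, and the mean over its 3 probe sets was 0.25. The gap between the EPAS1 and HIF1A differences was 1.45. Neither subunit gene passed 2-fold, and since HIF alpha is controlled mainly through protein stability, RNA values do not give its protein level. ARNT, the shared beta subunit, was at 8.01 in PC3CR and 7.76 in PC3, and VHL was at 5.97 in PC3CR and 6.46 in PC3. The differences of ARNT and VHL were 0.25 and -0.49, and both lay within 2-fold. Over the 6 genes the median was 0.47.

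A further 13 oxygen-sensing genes had a median of -0.001, and 1 of them passed 2-fold upward and 1 downward. ARNT2, a paralog of ARNT, was at 6.62 in PC3CR and 4.40 in PC3, a difference of 2.22 whose size is limited by a PC3 value near the lower quartile. CUL2, the scaffold of the ubiquitin ligase that holds VHL, was at 8.43 in PC3CR and 10.11 in PC3, a difference of -1.68. Averaged over its probe sets CUL2 differed by -0.996. The other 11 genes, among them the VHL partners ELOB and ELOC and the asparaginyl hydroxylase HIF1AN, lay within 2-fold.

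Genes induced by hypoxia did not move as a block. The median of the 9 measured hypoxia-induced signalling genes was -0.29, with 3 of them at least 2-fold lower in PC3CR and the other 6 within 2-fold. ADM, which encodes the vasodilator peptide adrenomedullin, was at 9.02 in PC3CR and 12.86 in PC3, a difference of -3.84 or 14.3-fold lower. By the brightest probe set this was the largest difference of the 35 genes in either direction and the 92nd lowest of all 19775 genes. It rests on the only probe set of ADM, and both values lay above the median of their array.

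ANKRD37, an ankyrin repeat protein and HIF1 target, was at 6.36 in PC3CR and 8.13 in PC3, a difference of -1.77. KDM3A, a histone demethylase that is induced by hypoxia, was at 8.41 in PC3CR and 10.06 in PC3, a difference of -1.65. Each of these genes had a second, dim probe set, with values of 3.96 in PC3CR and 4.15 in PC3 for ANKRD37. The second probe set of KDM3A was at 2.31 in PC3CR and 2.50 in PC3. As means of their probe sets ANKRD37 and KDM3A differed by -0.98 and -0.92, so that both came within 2-fold.

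The other measured hypoxia-induced members each lay within 2-fold between PC3CR and PC3. VEGFA, the growth factor of blood vessels, was at 10.95 in PC3CR and 10.52 in PC3, a difference of 0.44 from its brightest probe set. Its other 3 probe sets differed by between -0.65 and -0.13, so that the mean over all 4 was -0.20 and no direction can be given. BNIP3 and BNIP3L, which tag mitochondria for mitophagy, differed by 0.09 and 0.64, with BNIP3L at 11.10 in PC3CR and 10.46 in PC3. BNIP3, at 11.61 in PC3CR and 11.52 in PC3, had no settled sign, since its difference was -0.05 as a probe set mean and -0.04 after median centring. ANGPTL4, a secreted inhibitor of lipoprotein lipase, was at 8.22 in PC3CR and 8.004 in PC3, a difference of 0.22. NDRG1, a stress-responsive gene of differentiation, was at 10.88 in PC3CR and 11.27 in PC3, a difference of -0.39. CA12, a carbonic anhydrase of the cell surface, was at 7.23 in PC3CR and 7.52 in PC3, a difference of -0.29, and all 7 of its probe sets were lower in PC3CR, by between -0.55 and -0.19.

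A wider list of 45 hypoxia-induced genes, of which 42 were measured, had a median of -0.03. Of these, 9 passed 2-fold upward, 3 downward and 30 in neither direction. The shares were 21.4% upward and 7.14% downward, against 9.84% and 6.72% of all genes and 15.6% and 10.8% of bright genes. This list was not held to the floor for bright genes, and among the 9 LOX and RORA did not reach it. Among the 9, LOXL2, RORA and P4HA2 came within 2-fold as means of their probe sets, at 0.40, 0.55 and 0.91. VLDLR, a lipoprotein receptor, was at 8.62 in PC3CR and 5.80 in PC3, a difference of 2.82. PPFIA4, a liprin, was at 6.53 in PC3CR and 4.33 in PC3, a difference of 2.20. LOX, which cross-links collagen, was at 6.03 in PC3CR and 3.84 in PC3, a difference of 2.19. In PC3 the value of LOX lay below the lower quartile and that of PPFIA4 near it, which limits the size of both differences. BHLHE41, a transcriptional repressor, was at 5.26 in PC3CR and 8.42 in PC3, a difference of -3.16, or -1.37 averaged over 4 probe sets.

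**Figure D2:**
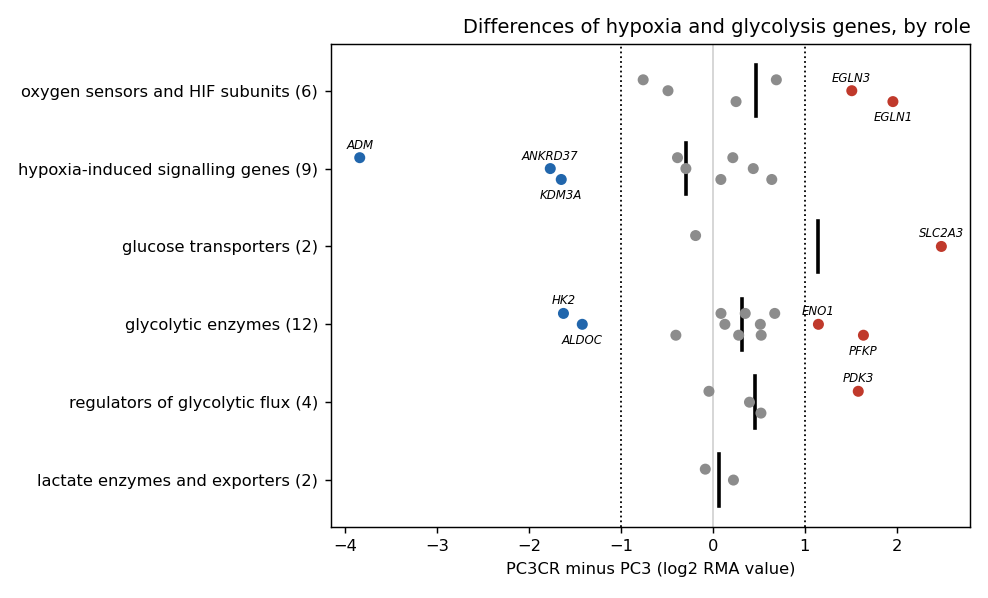
PC3CR minus PC3 in log2 RMA units (horizontal axis) by role of the 35 measured genes, each gene as 1 point and each role with its gene number in brackets. Colours mark genes 2-fold or more higher in PC3CR (red), 2-fold or more lower (blue) and between the dotted lines (grey), and black bars are medians. The hypoxia-induced signalling genes hold 3 blue points and no red point, while the glycolytic enzymes hold 2 of each.

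Glucose enters cells through carriers of the SLC2A family, and the pair measured here differed. SLC2A3, the high-affinity carrier best known from neurons, was at 6.21 in PC3CR and 3.73 in PC3, a difference of 2.48. This value comes from an _x_at probe set, whose probes other transcripts may share, and without such probe sets the difference was 4.67. The values of SLC2A3 in PC3 lay below the lower quartile for each of its 3 probe sets, so the size of the difference and its rank among genes are not settled. The 3 probe sets differed by 1.85, 2.48 and 4.67, with 7.31 in PC3CR and 2.63 in PC3 for the last, and all passed 2-fold. A further 2 probe sets, assigned by the annotation to SLC2A3 and its close copy SLC2A14 together, differed by 0.71 and 2.80. Signal of these genes cannot be told apart there. SLC2A14 had no probe set of its own here, and whether it adds to the 3 probe sets of SLC2A3 was not tested. SLC2A1, the carrier that most cancer cells use, was at 8.12 in PC3CR and 8.31 in PC3, a difference of -0.19. The gap between the SLC2A3 and SLC2A1 differences was 2.67.

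The 12 other sugar transporters measured had a median of -0.06, with 2 past 2-fold, both higher in PC3CR. SLC2A13, a proton-coupled myo-inositol carrier, was at 9.29 in PC3CR and 6.90 in PC3, a difference of 2.39. SLC2A10 was at 8.48 in PC3CR and 6.82 in PC3, a difference of 1.66.

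Most glycolytic enzymes lay within 2-fold. Of 12 enzymes, PFKP and ENO1 passed 2-fold upward, HK2 and ALDOC passed it downward, and 8 did neither, with a median of 0.32. By the brightest probe set the difference was above 0 for 9 enzymes and below 0 for 3. The sign of TPI1 is not settled, and probe sets of PGK1, PFKP and HK2 also had both signs. Over all genes 45.2% had a difference above 0, and 54.4% of bright genes did. HK2, the inducible hexokinase of the first step, was at 9.07 in PC3CR and 10.69 in PC3, a difference of -1.63 or 3.09-fold lower. Its other probe sets were dim and differed by 0.10 and -0.21, so that the mean was -0.58. HK1, the constitutive hexokinase, was at 10.21 in PC3CR and 10.62 in PC3, a difference of -0.40.

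Phosphofructokinase commits the sugar to glycolysis, and of its isoenzymes PFKP passed 2-fold and the other two did not. PFKP, the platelet-type isoenzyme, was at 11.07 in PC3CR and 9.43 in PC3, a difference of 1.64 or 3.11-fold. A second probe set of PFKP was at 3.12 in PC3CR and 3.42 in PC3, below the lower quartile on both arrays, and the mean over both was 0.67. PFKM, the muscle type, was at 9.92 in PC3CR and 9.24 in PC3, a difference of 0.67, and PFKL, the liver type, was at 8.06 in PC3CR and 7.78 in PC3, a difference of 0.28. The PFKP difference exceeded that of PFKL by 1.36 and that of PFKM by 0.96. GPI, which converts the product of hexokinase to the substrate of phosphofructokinase, was at 10.66 in PC3CR and 10.13 in PC3, a difference of 0.52.

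Aldolase splits the sugar, and its forms went in opposite directions. ALDOC, the brain type and a HIF target, was at 8.85 in PC3CR and 10.27 in PC3, a difference of -1.42 from its only probe set. ALDOA, the form of most cells, was at 13.14 in PC3CR and 12.63 in PC3, a difference of 0.52. The gap between the ALDOC and ALDOA differences was -1.94. All 3 probe sets of ALDOA have names ending in _x_at, with which the maker marks probes that other transcripts may share.

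The later enzymes differed little, except for enolase. TPI1, PGK1 and PGAM1 differed by 0.09, 0.13 and 0.35, with TPI1 at 11.60 in PC3CR and 11.51 in PC3, PGK1 at 12.12 in PC3CR and 11.99 in PC3, and PGAM1 at 11.84 in PC3CR and 11.49 in PC3. TPI1 had no settled sign, with -0.05 averaged over its probe sets and -0.04 after median centring. Of 6 probe sets of PGK1, 4 were higher and 2 lower in PC3CR, and its difference was 0.006 after median centring. ENO1, the enolase of most tissues, was at 12.92 in PC3CR and 11.78 in PC3, a difference of 1.15. The 4 probe sets of ENO1 were all higher in PC3CR, by between 0.53 and 1.15, and 2 of them passed 2-fold, while the mean over all 4 was 0.89. TPI1, PGK1 and ENO1 have processed pseudogenes, whose share in these values is not known.

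The steps of the pathway outside these members were GAPDH and pyruvate kinase. GAPDH, whose probe sets all have names ending in _x_at, was at 12.96 in PC3CR and 13.09 in PC3, a difference of -0.13. PKM, the pyruvate kinase of tumor cells, was at 8.80 in PC3CR and 7.42 in PC3, a difference of 1.38, or 0.92 as the mean of 2 probe sets. Over 17 other glycolytic genes the median was -0.13, PKM was the 1 past 2-fold upward, and 2 passed it downward. The lower ones were BPGM, the bisphosphoglycerate mutase, at 7.56 in PC3CR and 9.05 in PC3, and HKDC1, a hexokinase relative, at 4.54 in PC3CR and 5.74 in PC3. Their differences were -1.48 and -1.20, and averaged over 4 probe sets HKDC1 differed by -0.84, within 2-fold.

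Regulators of flux were measured with 4 genes. PFKFB3 and PFKFB4 make a sugar phosphate that activates phosphofructokinase, and they differed by 0.40 and 0.52. PFKFB3 was at 8.84 in PC3CR and 8.44 in PC3, and PFKFB4 was at 7.59 in PC3CR and 7.07 in PC3. The pyruvate dehydrogenase kinases, which hold pyruvate back from mitochondria, differed from each other. PDK3 was at 8.42 in PC3CR and 6.84 in PC3, a difference of 1.58 or 2.99-fold. The other 4 probe sets of PDK3 differed by between -0.60 and 0.35, and the mean over all 5 was 0.34, so that the 2-fold difference rests on the brightest. PDK1, a classical HIF1 target, was at 8.59 in PC3CR and 8.63 in PC3, a difference of -0.04.

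At the pyruvate and lactate branch the lactate dehydrogenases hardly differed. LDHA, which makes lactate and is a HIF target, was at 12.48 in PC3CR and 12.56 in PC3, a difference of -0.08. LDHB, which favors the reverse reaction, was at 12.66 in PC3CR and 12.43 in PC3, a difference of 0.22. All probe sets of LDHB have names ending in _x_at, like those of ALDOA. In a list of 10 other lactate and pyruvate genes the median was -0.03, and 1 gene passed 2-fold in each direction. EMB, the glycoprotein embigin that escorts lactate carriers to the membrane, was at 8.35 in PC3CR and 5.84 in PC3, a difference of 2.51. MPC1, a subunit of the mitochondrial pyruvate carrier, was at 6.88 in PC3CR and 8.48 in PC3, a difference of -1.60, or -0.76 averaged over 2 probe sets. BSG, the other escort of lactate carriers, differed by 0.03.

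The pyruvate dehydrogenase complex turns pyruvate into acetyl-CoA. The list of its genes includes regulators, but not the members PDK1 and PDK3 described above. Its 9 measured genes had a median of -0.10, and 1 passed 2-fold in each direction. DLAT, the acetyltransferase of the complex, was at 9.46 in PC3CR and 8.26 in PC3, a difference of 1.20. PDHA1, its catalytic alpha subunit, was at 10.16 in PC3CR and 11.26 in PC3, a difference of -1.09, or -0.82 averaged over 3 probe sets.

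**Figure D3:**
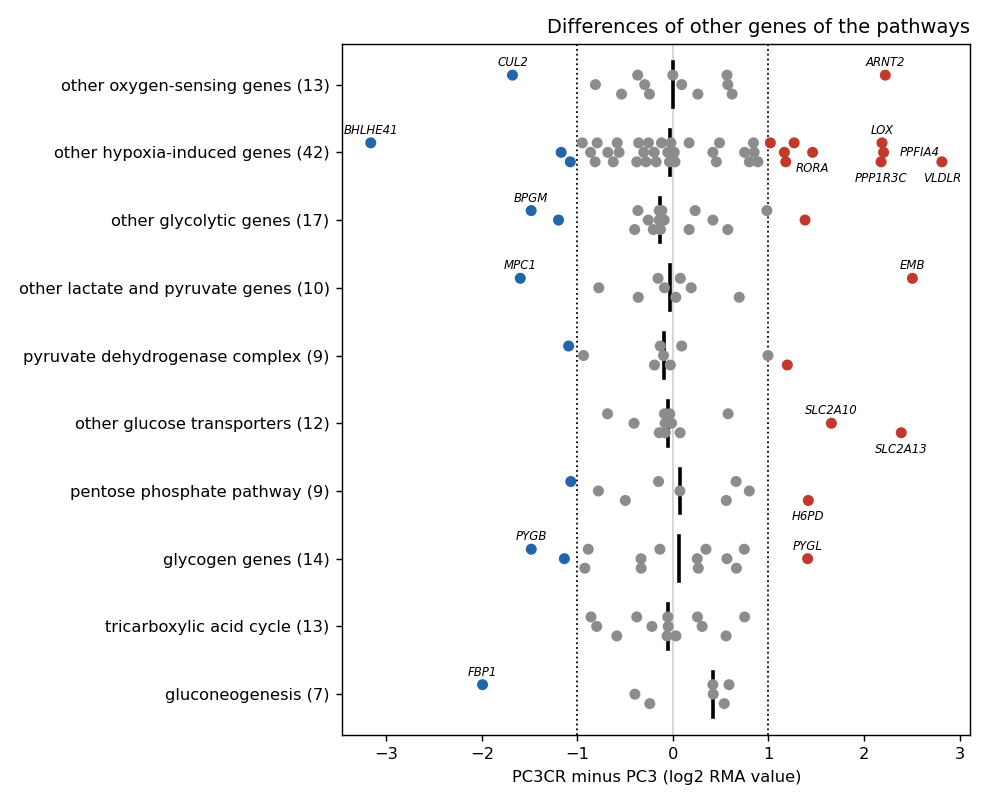
PC3CR minus PC3 in log2 RMA units (horizontal axis) in lists of other hypoxia, glycolysis and adjoining pathway genes, each gene as 1 point and each list with its gene number in brackets. Colours mark genes 2-fold or more higher in PC3CR (red), 2-fold or more lower (blue) and between the dotted lines (grey), and black bars are medians. All medians but that of gluconeogenesis lie within 0.14 of 0, and the genes furthest from 0 are named.

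Agreement between probe sets was uneven. The 35 genes had 89 probe sets, and 25 genes had more than 1. In 15 of these 25 genes all probe sets had the same sign. Of the 11 genes past 2-fold, 9 had several probe sets, and in 2 of them, SLC2A3 and EGLN3, every probe set passed 2-fold. ADM and ALDOC had 1 probe set each. With the mean of probe sets, EGLN1, EGLN3, SLC2A3, ADM and ALDOC were past 2-fold and ANKRD37, KDM3A, HK2, PFKP, ENO1 and PDK3 were not. That rule put 6.92% of all genes past 2-fold upward and 5.43% downward. Taken one by one, 12 of the 89 probe sets passed 2-fold upward and 5 downward, against 8.94% and 5.89% of all probe sets with 1 symbol.

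Counts of members under other thresholds and scalings stand beside those of all genes measured the same way. At 3-fold, 3 members were higher and 4 lower in PC3CR, against 3.82% and 3.1% of all genes, and at 1.5-fold the counts were 9 and 6, against 18% and 13.5%. The same 11 members were past 2-fold after each of 3 other scalings. Past 2-fold upward and downward were 8.15% and 8.08% of all genes after median centring, 9.08% and 7.28% after loess centring, and 9.22% and 6.98% after quantile normalization. Without _x_at probe sets these shares were 10% and 6.76%, and 11 of 33 members passed 2-fold.

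**Figure D4:**
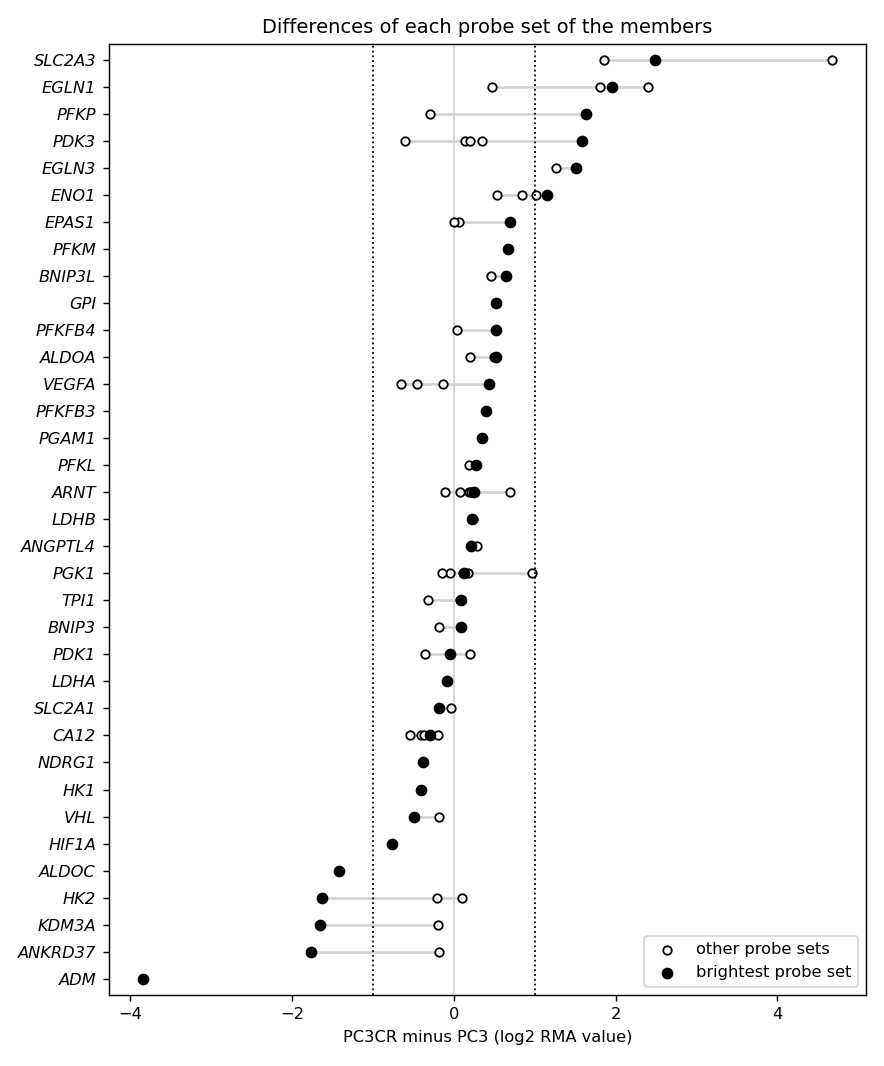
PC3CR minus PC3 in log2 RMA units (horizontal axis) for every probe set of the 35 genes, ordered by the brightest probe set (filled circles), with other probe sets as open circles and dotted lines at 2-fold. The probe sets of SLC2A3 lie between 1.85 and 4.67, all to the right of the dotted line, whereas those of PDK3 lie between -0.60 and 1.58.

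Genes next to the members on the chromosome differed too in some places. For each member the median difference was taken over up to 12 bright genes on either side, in the gene order of RefSeq on GRCh38.p14. EGLN3 on chromosome 14 lay among 24 such neighbours with a median of 1.15, of which 15 passed 2-fold upward. PFKP and PFKFB3, both on chromosome 10, had neighbours with medians of 1.01 and 1.15 and shared 11 of them. Of 19 neighbours of PFKP 10 passed 2-fold upward, and of 24 neighbours of PFKFB3 15 did. Over all 10622 bright genes with neighbours, 1.95% had a neighbour median of 1 or more. The neighbours of EGLN1 had a median of 0.63, and those of SLC2A3, HK2, ADM and ENO1 had medians of 0.10, 0.06, 0.01 and -0.05. ALDOC differed by -1.42, whereas 7 of its 24 neighbours passed 2-fold upward and none passed it downward. The part of neighbouring genes in these differences was not tested.

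Promoters were searched for the core letters of the hypoxia response element, ACGTG or GCGTG on either strand, with overlapping matches counted once. RefSeq windows of 300 bases on GRCh38.p14, from 250 before to 50 after a gene's start, were given for 32 of the 38 genes. In 29 of these 32 genes at least 1 window held the letters, as did 52.4% of all genes. Among genes with 1 window the letters were found in 17 of 20 members, against 47.3% of all genes and 66.2% of bright genes. The windows of these 20 members had a median of 26 CG dinucleotides, against 12 over all genes with 1 window and 28 over bright ones. Several members were listed because they are known HIF targets, so a high share is no finding. The letters were present whichever way a gene went, in 5 of 5 genes at least 2-fold lower, 4 of 5 genes at least 2-fold higher and 18 of 20 genes within 2-fold. The 250 bases before the start are shown for 3 genes that were lower, 1 that did not differ by 2-fold and 2 that were higher in PC3CR, 5′ to 3′ on the strand of the gene, with matches in capitals. ADM lies at chr11:10304823-10305072 on the plus strand, ANKRD37 at chr4:185396591-185396840 on the plus strand, ALDOC at chr17:28576896-28577145 on the minus strand, BNIP3 at chr10:131981924-131982173 on the minus strand, EGLN1 at chr1:231422288-231422537 on the minus strand, and ENO1 at chr1:8878687-8878936 on the minus strand.
ADM: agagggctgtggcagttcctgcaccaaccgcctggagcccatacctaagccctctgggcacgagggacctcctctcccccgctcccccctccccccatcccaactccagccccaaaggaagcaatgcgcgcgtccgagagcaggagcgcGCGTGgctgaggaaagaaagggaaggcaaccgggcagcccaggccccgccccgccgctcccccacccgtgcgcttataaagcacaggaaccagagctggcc
ANKRD37: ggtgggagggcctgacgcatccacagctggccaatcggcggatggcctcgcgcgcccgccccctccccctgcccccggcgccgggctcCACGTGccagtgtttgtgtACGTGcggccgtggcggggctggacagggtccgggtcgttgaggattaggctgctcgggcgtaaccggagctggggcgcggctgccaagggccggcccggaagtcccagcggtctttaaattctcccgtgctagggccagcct
ALDOC: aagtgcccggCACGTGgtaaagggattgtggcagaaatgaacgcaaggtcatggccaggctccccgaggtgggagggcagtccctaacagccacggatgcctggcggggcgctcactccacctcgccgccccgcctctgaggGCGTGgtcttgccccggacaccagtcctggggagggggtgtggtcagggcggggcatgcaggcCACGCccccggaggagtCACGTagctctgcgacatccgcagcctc
BNIP3: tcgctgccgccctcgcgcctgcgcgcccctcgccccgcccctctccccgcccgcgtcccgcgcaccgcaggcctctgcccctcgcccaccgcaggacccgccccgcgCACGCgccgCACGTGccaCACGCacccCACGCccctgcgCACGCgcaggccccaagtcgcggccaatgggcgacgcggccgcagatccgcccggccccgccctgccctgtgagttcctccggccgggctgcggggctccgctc
EGLN1: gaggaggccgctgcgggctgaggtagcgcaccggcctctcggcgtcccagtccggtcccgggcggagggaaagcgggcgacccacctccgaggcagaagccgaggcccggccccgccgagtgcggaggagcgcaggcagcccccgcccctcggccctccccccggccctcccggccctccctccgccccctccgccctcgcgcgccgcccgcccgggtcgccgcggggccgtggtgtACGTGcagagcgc
ENO1: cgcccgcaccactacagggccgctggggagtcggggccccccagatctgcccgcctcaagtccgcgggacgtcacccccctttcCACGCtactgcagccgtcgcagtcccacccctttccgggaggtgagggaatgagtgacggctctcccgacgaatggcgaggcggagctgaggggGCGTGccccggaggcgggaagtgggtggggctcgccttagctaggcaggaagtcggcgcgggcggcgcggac

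These stretches held 1 match for ADM, 2 for ANKRD37 and 4 for ALDOC, whose differences were -3.84, -1.77 and -1.42. BNIP3 held 5 matches and differed by 0.09, while EGLN1 and ENO1 held 1 and 2 matches and differed by 1.96 and 1.15. The 6 genes shown are a chosen part of the members, and whether the number of matches goes with the differences was not tested. A match is a run of letters and not a measured binding site.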

How the data were processed

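Gene expression was measured with 1 array for PC3CR and 1 for PC3. The authors deposited log2 values, 1 for each of 54613 probe sets, made with the robust multichip average, and the submitters' processing notes name Affymetrix Expression Console 1.4 and Transcriptome Analysis Console 3.1. RMA makes the value distributions of the arrays alike, which hides a difference in total RNA per cell. The probe set names belong to the design Human Genome U133 Plus 2.0, which is not the one given in the methods (Human Gene 1.0 ST).

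Probe sets with 1 gene symbol in the platform annotation (41091) were used. For 41037 of them the symbol was taken from RefSeq through the Entrez ID, whether or not it changed. Probe sets with several symbols (1801) or unnamed here (11721) were not used, apart from 2 for SLC2A3 and SLC2A14. Genes were called at 2-fold, and no test was run with 1 array per line. All measured members were named, and of each other list up to 4 genes past 2-fold, or the 2 furthest from 0 where none was, with GAPDH and PKM always. Other genes named (EPCAM, KRT19 and further markers, HIF1AN, ELOB, ELOC, BSG, LOXL2, RORA and P4HA2) were chosen after their values were seen. Members and lists were chosen with earlier results of these data known. Alternatives were other fold thresholds, the mean of probe sets, single probe sets, 3 scalings (quantile normalization, median centring, and loess centring at a span of 0.4), a floor on signal and, added after the data had been seen, leaving out _x_at probe sets. Medians of lists that changed by over 0.1 under an alternative are reported, and members where the call or sign changed. For genes outside the members such changes are reported only in part. The procedure was checked on simulated data in which all probe sets of a gene changed alike. That check does not cover genes whose probe sets differ from each other. Scripts ran in Python 3.11.15 with pandas 2.3.3, numpy 2.4.6, matplotlib 3.10.9 and, for loess, statsmodels 0.14.6.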

Additional observations from a re-analysis of the deposited data

How the results depend on the processing

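With 1 array per cell line the number of arrays limits every value, and no array could be left out. Each value for the brightest probe set is given last in brackets where a median moved by over 0.1. With the mean of probe sets, 3 members passed 2-fold upward and 2 downward, in place of 6 and 5. A threshold of 3-fold left 3 higher and 4 lower. Of the 89 probe sets taken one by one, 12 passed 2-fold upward. Loess centring, quantile normalization, median centring and leaving out _x_at probe sets changed no call among the members they could use, which were 35, 35, 35 and 33. Median centring shifted every difference by -0.12 and made the median of the members 0.10 (0.22), of oxygen sensors and HIF subunits 0.35 (0.47), of hypoxia-induced signalling genes -0.42 (-0.29), of glucose transporters 1.02 (1.15), of glycolytic enzymes 0.19 (0.32), of flux regulators 0.34 (0.46) and of the lactate dehydrogenases -0.054 (0.07). With the mean of probe sets the medians were 0.24 for oxygen sensors and HIF subunits, 1.45 for glucose transporters, 0.31 for flux regulators, -0.14 for other oxygen-sensing genes (-0.001), 0.059 for the pyruvate dehydrogenase complex (-0.10) and 0.20 for gluconeogenesis (0.42). Over single probe sets they were 0.24 for oxygen sensors and HIF subunits, 1.85 for glucose transporters, 0.18 for glycolytic enzymes, 0.20 for flux regulators and 0.22 for the lactate dehydrogenases. Loess centring gave 0.35 for flux regulators and 0.29 for gluconeogenesis. The floor on signal kept all 35 members. LDHA changed sign after quantile normalization. Why the probe sets of a gene differ was not tested.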

Other observations

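Of 4 pathways that adjoin glycolysis, the pentose phosphate pathway and the glycogen genes held genes past 2-fold in both directions. The pentose phosphate pathway, which makes NADPH and ribose, had 9 measured genes with a median of 0.07, and 1 of them passed 2-fold in each direction. H6PD, the hexose phosphate dehydrogenase of the endoplasmic reticulum, was at 6.78 in PC3CR and 5.37 in PC3, a difference of 1.42, or 0.56 averaged over 4 probe sets. RPIA, the ribose phosphate isomerase, was at 8.88 in PC3CR and 9.95 in PC3, a difference of -1.07.

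Over 14 measured glycogen genes the median was 0.06, and 1 gene passed 2-fold upward and 2 downward. The glycogen phosphorylases went in opposite directions, with the liver form PYGL at 11.02 in PC3CR and 9.61 in PC3, a difference of 1.41, and the brain form PYGB at 7.22 in PC3CR and 8.71 in PC3, a difference of -1.48. As the mean of its 2 probe sets PYGB differed by -0.66. GBE1, the glycogen branching enzyme, was at 9.11 in PC3CR and 10.25 in PC3, a difference of -1.14.

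Of 13 measured genes of the tricarboxylic acid cycle, no gene was past 2-fold, and their median was -0.05. SUCLG2, a subunit of succinyl-CoA ligase, and IDH3G, a subunit of isocitrate dehydrogenase, were furthest from 0, at -0.86 and -0.80. Of 7 genes of gluconeogenesis, FBP1, the fructose bisphosphatase that opposes phosphofructokinase, was the 1 past 2-fold. It was at 4.24 in PC3CR and 6.24 in PC3, a difference of -1.99 from its only probe set, and its value in PC3CR lay just above the lower quartile of 4.10.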
